A study of Homo sapiens with 16 samples.

Results

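The genes described here are 10 immediate early transcription factors, namely FOS, FOSB, FOSL1, JUN, JUNB, EGR1, EGR2, EGR3, IER2 and MYC. They were taken by name as a known family, with earlier results of these data known. All 10 were found by symbol among the 25370 genes of the count table, and all 10 were among the 16004 genes with enough counts to be tested. EGR2 passed narrowly, since only 5 of the 16 libraries held at least 10 EGR2 counts, and for EGR3 13 libraries did.

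RNA was sequenced from HMC3, an established human cell line sold as microglial, after 24 h in vehicle, in 0.1 nM estradiol (E2), or in 400 nM ketamine, 2R6R-HNK or 2S6S-HNK, the last being mirror-image isomers of hydroxynorketamine, a metabolite of ketamine. The remaining 3 conditions combined 0.1 nM E2 with 400 nM of each drug. Cells in all 8 conditions had first been kept in charcoal-stripped serum and then without serum, and the treatment medium held neither serum nor phenol red, so vehicle cells were serum-starved as well. Each condition had 2 libraries, with 55300614 to 81646165 counts each. The sources used here do not say whether the 2 libraries came from separate cultures, so each p-value below measures only the spread between libraries, which may be technical. All 7 comparisons with vehicle share the same 2 vehicle libraries. In these bulk samples fewer expressing cells and less RNA per cell cannot be told apart.

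Immediate early genes are switched on within minutes of a stimulus, with no new protein needed, when kinases such as ERK act on transcription factors already bound at their promoters. FOS, FOSB and FOSL1 pair with JUN or JUNB to form AP-1, a dimer that binds DNA and drives genes of proliferation, matrix turnover and stress. EGR1, EGR2 and EGR3 are zinc finger factors, IER2 is a small nuclear regulator and MYC pairs with MAX to raise genes of growth and ribosome production. In the brain FOS and EGR1 are widely used as marks of recent cell activation. The messages of most of them are short-lived, and here they were read 24 h after drug was added.

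Of the markers checked for the labelled cell type, CD68, a lysosomal protein of phagocytes, was at 17.4 to 23.4 CPM (counts scaled to the effective size of each library), and the 12 microglial markers summed to 18.9 to 25.0 CPM over the 16 libraries. The defining microglial and myeloid genes AIF1, ITGAM, PTPRC, CX3CR1, P2RY12, TMEM119, TYROBP and SPI1 had at most 7 counts in any library and GPR34 at most 10, while CSF1R had 24 to 89 counts and TREM2 25 to 79. The 8 mesenchymal markers summed to 5695 to 7820 CPM, led by the collagen gene COL1A1 at 3589 to 5344 CPM, while COL3A1, DCN and LUM had at most 12 counts. Neuronal markers summed to 2.15 to 3.56 CPM and astrocytic markers to 2.12 to 4.33 CPM.

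The promoters of FOS, FOSB and EGR1 are shown because these genes were higher after every treatment as normalised. With the correction for GC content and length described below, EGR1 was called higher after 4. The sequences are the 120 bases before the transcription start in the RefSeq promoter table. Each was found once on the plus strand of the gene's own chromosome in GRCh37. Capitals in FOS and FOSB mark TGACG, the core of the cAMP response element (CRE), and the TATA motif TATAAA. Capitals in EGR1 mark 2 CArG boxes, the motif of serum response factor, and CGTCA, the CRE core read from the other strand.
FOS, chr14:75745411-75745530: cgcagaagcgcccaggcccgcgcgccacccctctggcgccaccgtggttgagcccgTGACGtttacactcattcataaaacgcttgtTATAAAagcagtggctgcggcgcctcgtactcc
FOSB, chr19:45971134-45971253: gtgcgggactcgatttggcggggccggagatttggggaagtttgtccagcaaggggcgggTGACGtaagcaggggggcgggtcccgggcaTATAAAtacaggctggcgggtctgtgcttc
EGR1, chr5:137801048-137801167: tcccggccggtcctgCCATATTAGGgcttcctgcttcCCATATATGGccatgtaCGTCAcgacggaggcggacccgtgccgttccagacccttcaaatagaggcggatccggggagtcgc

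The table covered 250 bases before to 50 after each start and held 7 of the 10 genes. FOSL1, EGR3 and MYC were the others. TGACG, on either strand, was present in JUN, JUNB, IER2, FOS, FOSB, EGR1 and the third of 3 EGR2 windows, and in 24.6% of all 35116 promoters. TATAAA was present in FOS, FOSB and JUNB, and in 11.5% of all promoters. The CArG box (CC, then 6 bases that are A or T, then GG) was present in EGR1 and in 1 EGR2 window, and in 1.29% of all promoters. None of the 7 held the full CRE (TGACGTCA, 1.85% of all promoters, which contains TGACG) or the AP-1 site (TGANTCA, 7.71%). EGR1 and 1 EGR2 window held the EGR site (GCGNGGGCG, 9.43%), 1 EGR2 window the E-box bound by MYC (CACGTG, 7.26%), and EGR1 the STAT site (TTCNNNGAA, 7.66%). A match describes letters in these windows and says nothing of binding. Sites outside the windows were not read, so a motif absent here may lie further from the start.

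Per kilobase of transcript (RPKM over the canonical GENCODE transcript), the 10 genes spanned a wide range. Over the 16 libraries FOSL1 had a mean level of 77.2 RPKM, JUN 65.2, MYC 41.5, IER2 17.3, EGR1 14.6 and JUNB 7.44. FOS was at 1.25 RPKM, FOSB at 0.548, EGR3 at 0.0562 and EGR2 at 0.0367. Of these AP-1 genes FOSL1 and JUN thus had by far the most message, and the FOS and FOSB changes described below were changes at low levels.

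**Figure D1:**
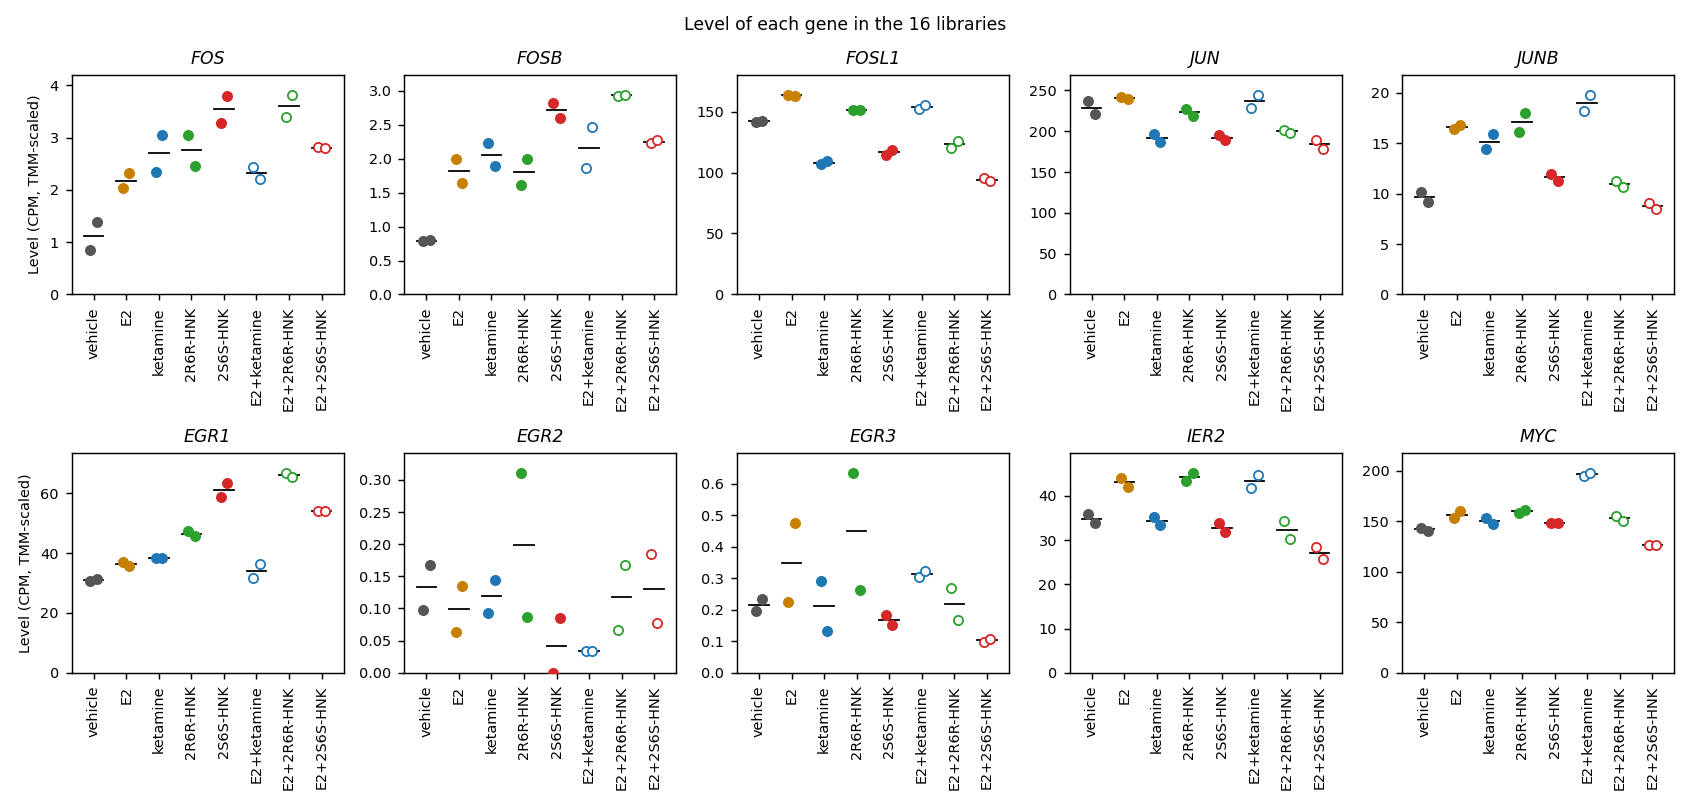
Level of each of the 10 genes (CPM, linear axes from 0) in the 8 conditions, with 1 point per library, a line at the mean of 2 libraries and open points for E2 with a drug. FOS and FOSB lie above both vehicle libraries in all 14 treated libraries, EGR1 is highest in E2+2R6R-HNK at 66.8 and 65.5 CPM, and the 2 EGR2 and EGR3 points of 2R6R-HNK lie far apart.

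Against vehicle and as normalised, FOS, FOSB and EGR1 rose after all 7 treatments, by 1.94- to 3.22-fold, 2.25- to 3.69-fold and 1.097- to 2.13-fold. With the correction for GC content and length described below, FOS and FOSB stayed called higher after all 7. EGR1 was then called higher after 4 and lower after E2+ketamine (-0.29 on the log2 scale). JUNB as normalised rose after 6 while FOSL1 and JUN fell after ketamine, 2S6S-HNK, E2+2R6R-HNK and E2+2S6S-HNK. With the correction, JUNB was called higher after 4 and lower after 3, and FOSL1 and JUN were called lower after all 7. A gene was called at an adjusted p under 0.05 (edgeR, quasi-likelihood F test, p-values adjusted over the 16004 genes). Such calls were common, so each count is set against the share of all tested genes.

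After E2, 8 of the 10 were called higher and 0 lower, beside 29.9% and 32.7% of all genes tested. After ketamine, 5 were higher and 2 lower, beside 26.8% and 32.5%. After 2R6R-HNK, 7 were higher and 0 lower, beside 31.7% and 34.9%, and after 2S6S-HNK 4 were higher and 2 lower, beside 32.1% and 35.8%. With the correction for GC content and length described below, the members called higher and lower were 3 and 2 for E2, beside 15.7% and 22.4% of all genes in the corrected fit. They were 3 and 4 for ketamine, beside 17.7% and 30.8%, 4 and 3 for 2R6R-HNK, beside 20.6% and 25.1%, and 3 and 5 for 2S6S-HNK, beside 25.4% and 31.5%.

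After E2+ketamine, 7 were higher and 0 lower, beside 34.3% and 37.4% of all genes. After E2+2R6R-HNK, 5 were higher and 2 lower, beside 33.4% and 36.3%. After E2+2S6S-HNK, 3 were higher and 4 lower, beside 24% and 35.7%, shares near those of all genes. With the correction, 4 were higher and 4 lower after E2+ketamine, beside 24.3% and 28.2% of all genes in the corrected fit. For both other combinations 3 were higher and 5 lower, beside 25.9% and 33.6% for E2+2R6R-HNK and 22.4% and 34% for E2+2S6S-HNK.

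Fewer genes were called at a log2 change of 1 or more. FOSB alone passed after E2, where 1.17% of all genes did. FOS and FOSB passed after ketamine (2.58% of all genes), 2R6R-HNK (1.82%), 2S6S-HNK (5.24%), E2+ketamine (4.47%) and E2+2S6S-HNK (4.18%). FOS, FOSB and EGR1 passed after E2+2R6R-HNK (6.1%). After a correction for the GC content and length of genes, described next, FOSB after E2 (0.89) and 2R6R-HNK (0.81), both genes after E2+ketamine (0.72 and 0.95) and EGR1 after E2+2R6R-HNK (0.76) no longer passed. Without vehicle replicate 1, FOS did not pass after ketamine (0.95), 2R6R-HNK (0.997) or E2+ketamine (0.73), nor after E2+ketamine without its replicate 1 (0.97). Other settings added members. FOS after E2 (0.96) passed without vehicle replicate 2 (1.35), without E2 replicate 1 (1.05) and with upper-quartile normalization (1.02). EGR1 after 2S6S-HNK and JUNB after E2+ketamine, both at 0.98, passed in 5 alternatives each, at 1.01 to 1.06 and 1.03 to 1.05. No member passed on the lower side in these 7 comparisons.

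A property shared by the whole table bears on the changes described here, large and small. Across the 95.9% of tested genes with a known sequence, the log2 fold change against vehicle rose with the share of G and C bases (GC) in a gene's exons, with Spearman's rho from 0.444 after E2+2S6S-HNK to 0.771 after E2+ketamine. This is a description across genes, which are not independent. The 10 members have 51.7% (MYC) to 64.9% (JUNB) GC, all above the median tested gene at 48.7%. A fit that removes the trend with GC and length, and with it any real change that follows GC, left FOS and FOSB called higher after all 7 treatments. It left EGR1 called higher after 4, and FOSL1 and JUN called lower after all 7. Corrected values follow beside many of the results.

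**Figure D2:**
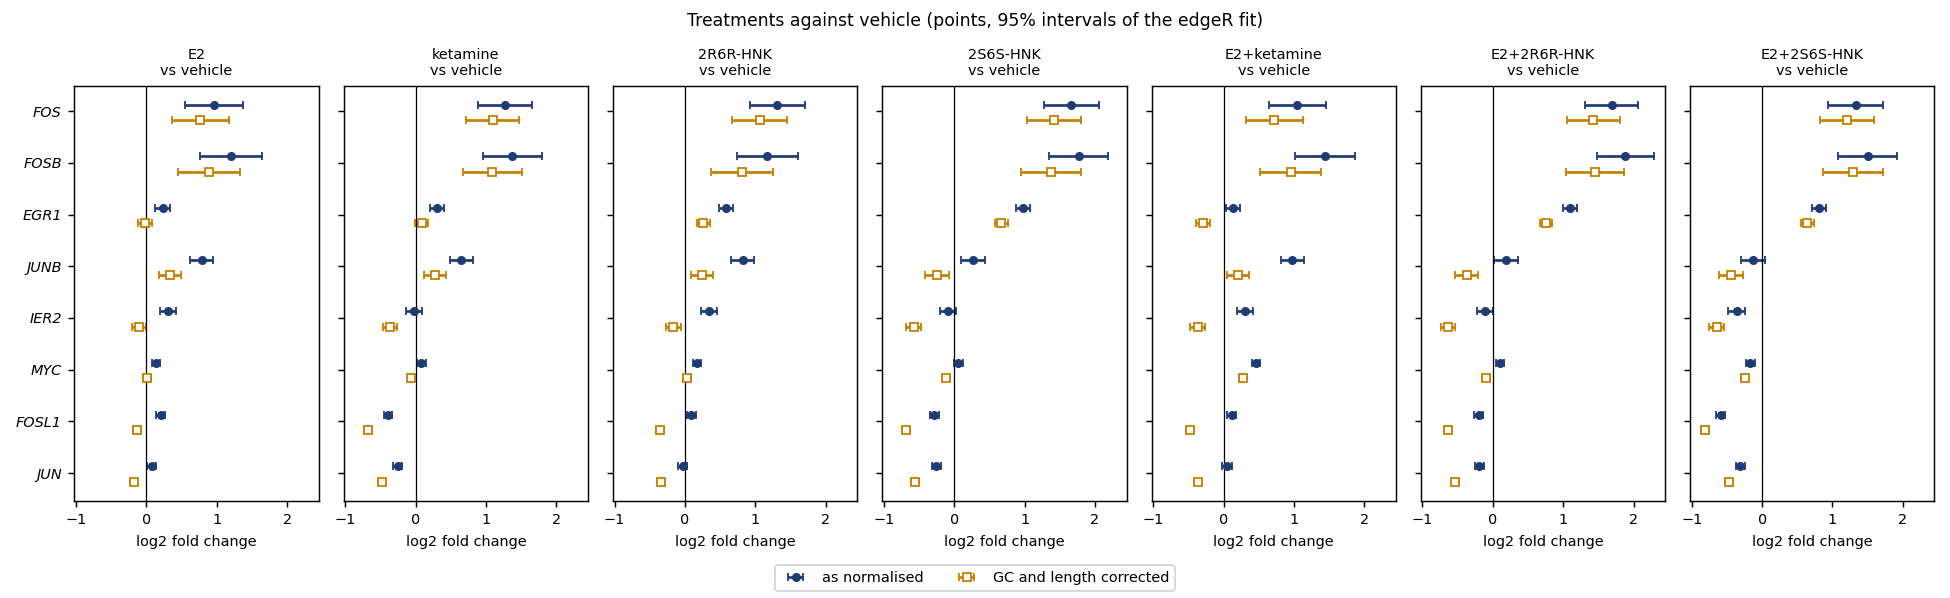
Log2 fold change against vehicle (horizontal axis, 95% intervals of the edgeR fit, 2 libraries per condition) for the 8 genes with ample counts, with filled points for the fit as normalised and open squares after the GC and length correction. FOS and FOSB stay to the right of 0 in both fits, while FOSL1 and JUN move to the left of 0 in all 7 panels after correction.

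FOS, which lies at chr14:75745529-75748933 in GRCh37, encodes the AP-1 subunit best known as an activity marker. Its vehicle libraries held 0.850 and 1.39 CPM, from 52 and 83 counts. The libraries were at 2.03 and 2.32 CPM after E2, 2.34 and 3.06 after ketamine, 3.06 and 2.47 after 2R6R-HNK, and 3.28 and 3.80 after 2S6S-HNK. With E2 present they were at 2.43 and 2.2 CPM for ketamine, 3.39 and 3.83 for 2R6R-HNK, and 2.82 and 2.80 for 2S6S-HNK.
Every treated library was thus above both vehicle libraries. E2+2R6R-HNK and 2S6S-HNK were highest and overlapped each other, and the other 5 treatments overlapped with at least 1 neighbour in the order. The log2 fold change was 0.96 ± 0.20 (SE) after E2 (adjusted p = 5.3e-05), 1.27 ± 0.19 after ketamine, 1.31 ± 0.20 after 2R6R-HNK and 1.66 ± 0.19 after 2S6S-HNK. It was 1.05 ± 0.20 after E2+ketamine, 1.69 ± 0.19 after E2+2R6R-HNK (adjusted p = 3.4e-11) and 1.33 ± 0.19 after E2+2S6S-HNK. FOS remained called after all 7 treatments whichever single library was left out, and the lowest value was 0.64, after E2. After the GC correction the 7 values ran from 0.72 to 1.43.

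FOSB, at chr19:45971253-45978437, encodes a close relative of FOS. It was at 0.785 and 0.806 CPM in vehicle, from 48 counts in each library. Its libraries held 2.00 and 1.64 CPM after E2, 2.23 and 1.89 after ketamine, 1.62 and 1.99 after 2R6R-HNK, and 2.83 and 2.60 after 2S6S-HNK. With E2 they held 1.86 and 2.47 CPM for ketamine, 2.92 and 2.95 for 2R6R-HNK, and 2.23 and 2.27 for 2S6S-HNK.
No treated library overlapped vehicle. E2+2R6R-HNK lay above all others, then 2S6S-HNK, and the other 5 treatments overlapped. The log2 fold change ran from 1.17 ± 0.22 after 2R6R-HNK (adjusted p = 4.5e-06) to 1.88 ± 0.20 after E2+2R6R-HNK (adjusted p = 1.1e-11). It was 1.20 ± 0.22 after E2, 1.37 ± 0.21 after ketamine, 1.77 ± 0.21 after 2S6S-HNK, 1.44 ± 0.21 after E2+ketamine and 1.50 ± 0.21 after E2+2S6S-HNK. All 7 calls held with each library left out, and the corrected values ran from 0.81 to 1.45.
Across the 8 condition means of log2 CPM, FOS and FOSB followed each other with Pearson's r of 0.97, a description over points that share their libraries.

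EGR1, at chr5:137801168-137804992, encodes a zinc finger factor induced by growth factors and by nerve activity. Its libraries held 30.7 and 31.3 CPM in vehicle, 36.99 and 35.8 after E2, 38.3 and 38.4 after ketamine, 47.2 and 45.7 after 2R6R-HNK, and 58.8 and 63.5 after 2S6S-HNK. In the presence of E2 they held 31.7 and 36.3 CPM for ketamine, 66.8 and 65.5 for 2R6R-HNK, and 54.1 and 54.1 for 2S6S-HNK.
The libraries with a metabolite lay above all libraries without one, and within the single treatments the order from E2 through ketamine and 2R6R-HNK to 2S6S-HNK had no overlap between neighbours. EGR1 rose by 1.09 ± 0.05 on the log2 scale after E2+2R6R-HNK (adjusted p = 1.8e-25), 0.98 ± 0.05 after 2S6S-HNK, 0.80 ± 0.05 after E2+2S6S-HNK and 0.58 ± 0.05 after 2R6R-HNK (adjusted p = 9.6e-15). These 4 calls held after the GC correction, at 0.76, 0.67, 0.64 and 0.26.
The smaller changes without a metabolite did not hold as well. After ketamine the value was 0.31 ± 0.05, or 0.08 when corrected (adjusted p = 0.13), and after E2 it was 0.23 ± 0.05, or -0.02 when corrected (adjusted p = 0.77). After E2+ketamine it was 0.13 ± 0.05 (adjusted p = 0.021). That call was lost without E2+ketamine replicate 2 (0.03) or vehicle replicate 1 (0.12), the value was 0.23 without E2+ketamine replicate 1, and the corrected value was -0.29, called lower.

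JUNB, at chr19:12902300-12904129, encodes an AP-1 subunit that often restrains JUN. It is the most GC-rich member, at 64.9%, and 259 bases of its exons overlap HOOK2 on the other strand, whose reads cannot be told apart if the counting was not stranded, which is not given in the sources used here. Its libraries held 10.1 and 9.16 CPM in vehicle, 16.4 and 16.8 after E2, 14.4 and 15.9 after ketamine, 16.1 and 18.0 after 2R6R-HNK, and 11.95 and 11.3 after 2S6S-HNK. Together with E2 the values were 18.2 and 19.8 CPM for ketamine, 11.3 and 10.7 for 2R6R-HNK, and 9.12 and 8.51 for 2S6S-HNK.
E2, ketamine, 2R6R-HNK and E2+ketamine thus formed a higher set with no overlap with the other conditions. JUNB rose by 0.78 ± 0.08 on the log2 scale after E2, 0.65 ± 0.08 after ketamine, 0.82 ± 0.08 after 2R6R-HNK and 0.98 ± 0.08 after E2+ketamine (adjusted p = 1.0e-15). Corrected for GC these were 0.33, 0.27, 0.25 and 0.21, all still called.
The lower set was near vehicle. The value was 0.27 ± 0.08 after 2S6S-HNK, 0.19 ± 0.08 after E2+2R6R-HNK (adjusted p = 0.039) and -0.13 after E2+2S6S-HNK, which was not called (95% interval -0.30 to 0.04). The 2S6S-HNK call was lost without 2S6S-HNK replicate 1 (0.23) or vehicle replicate 2 (0.19), and the E2+2R6R-HNK call without E2+2R6R-HNK replicate 1 (0.15) or vehicle replicate 2 (0.12). Corrected for GC, these 3 values were -0.25, -0.37 and -0.44, all called lower.

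IER2 lies at chr19:13261225-13265725. Over the 8 condition means its r was 0.91 with FOSL1, 0.89 with JUNB, 0.86 with JUN and 0.97 with EGR3, the last on few counts. Its exons share 1608 bases with genes on the other strand, and its GC is 61.6%. The libraries held 35.9 and 33.9 CPM in vehicle, 44.1 and 42.1 after E2, 35.3 and 33.5 after ketamine, 43.4 and 45.2 after 2R6R-HNK, and 33.9 and 31.8 after 2S6S-HNK. In E2 as well, they held 41.8 and 44.8 CPM for ketamine, 34.3 and 30.2 for 2R6R-HNK, and 28.4 and 25.7 for 2S6S-HNK.
Only E2, 2R6R-HNK and E2+ketamine lay above both vehicle libraries, and E2+2S6S-HNK lay below them. IER2 rose by 0.30 ± 0.06, 0.34 ± 0.06 and 0.31 ± 0.06 on the log2 scale in these 3 conditions and fell by 0.36 ± 0.06 after E2+2S6S-HNK (adjusted p = 3.1e-07). The rises turned to -0.11, -0.17 and -0.37 with the GC correction, while the fall grew to -0.64. Ketamine (-0.02, 95% interval -0.13 to 0.09), 2S6S-HNK (-0.09, -0.20 to 0.03) and E2+2R6R-HNK (-0.11, -0.23 to 0.00032) were not called. E2+2R6R-HNK was called without its replicate 1 (-0.21) or without vehicle replicate 2 (-0.15), and corrected for GC all 3 were called lower.

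FOSL1, at chr11:65659520-65668044, encodes the AP-1 subunit of migrating and mesenchymal cells and had the highest level per kilobase of the 10. Its libraries held 142 and 142 CPM in vehicle, 164 and 162 after E2, 107 and 109 after ketamine, 151 and 151 after 2R6R-HNK, and 115 and 118 after 2S6S-HNK. With E2 added, they held 152 and 156 CPM for ketamine, 120.3 and 126 for 2R6R-HNK, and 95.4 and 93.0 for 2S6S-HNK.
Replicates were close and no condition overlapped vehicle. FOSL1 fell by 0.39 ± 0.03 on the log2 scale after ketamine (adjusted p = 9.7e-16), 0.28 ± 0.03 after 2S6S-HNK, 0.20 ± 0.03 after E2+2R6R-HNK and 0.59 ± 0.03 after E2+2S6S-HNK (adjusted p = 6.7e-22). It was 0.20 ± 0.03, 0.09 ± 0.03 and 0.12 ± 0.03 higher after E2, 2R6R-HNK and E2+ketamine. The falls deepened with the GC correction, to between -0.63 and -0.81, and the 3 rises became falls of 0.14, 0.35 and 0.48 on the log2 scale, all called. The summed mesenchymal markers were highest in the same 3 conditions, at 7479.9 to 7518 CPM after E2, 7394 to 7430.4 after 2R6R-HNK and 7531 to 7820.4 after E2+ketamine beside 6164 to 6219 in vehicle, and lowest after E2+2S6S-HNK, at 5695 to 5966. After ketamine (6487 to 6573 CPM), 2S6S-HNK (6369.8 to 6786) and E2+2R6R-HNK (6714.5 to 6826) they were above vehicle, where FOSL1 was below it. IER2 too was highest in these 3 conditions and lowest after E2+2S6S-HNK, and the part of these markers in the results was not tested.

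JUN, at chr1:59242517-59249720, encodes a partner with which FOS proteins bind DNA. It varied least of the 10, with a range of condition means of 0.39 log2 CPM, and followed FOSL1 with r of 0.96 over the 8 condition means. Its libraries held 237 and 221 CPM in vehicle, 242 and 239.7 after E2, 197 and 187 after ketamine, 228 and 219 after 2R6R-HNK, and 195 and 189 after 2S6S-HNK. When E2 was also present they held 228 and 245 CPM for ketamine, 202 and 198 for 2R6R-HNK, and 189.7 and 179 for 2S6S-HNK.
The 4 conditions below both vehicle libraries with no overlap were those in which FOSL1 fell. JUN fell by 0.25 ± 0.03 on the log2 scale after ketamine and after 2S6S-HNK, by 0.19 ± 0.03 after E2+2R6R-HNK and by 0.31 ± 0.03 after E2+2S6S-HNK (adjusted p = 1.0e-11). The rise after E2 was 0.07 ± 0.03 (adjusted p = 0.044) and was lost without either E2 library (0.07 and 0.08) or vehicle replicate 2 (0.02), while without vehicle replicate 1 it was 0.13. The values after 2R6R-HNK (-0.03, 95% interval -0.10 to 0.03) and E2+ketamine (0.05, -0.02 to 0.11) were not called. E2+ketamine was called without its replicate 1 (0.10) or vehicle replicate 1 (0.10). It was also called in DESeq2 (0.10), with DESeq2 size factors (0.10) and with upper-quartile normalization (0.11). Corrected for GC, JUN was called lower after all 7 treatments, by 0.17 to 0.56 on the log2 scale.

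MYC, at chr8:128747680-128755197, was at 0.891 to 1.38 times its vehicle level after the 7 treatments, and 194 bases of its exons overlap CASC11 on the other strand. Its libraries held 144 and 141 CPM in vehicle, 154 and 159.8 after E2, 153 and 148 after ketamine, 159 and 161 after 2R6R-HNK, and 148 and 148 after 2S6S-HNK. With E2 they held 195 and 198 CPM for ketamine, 156 and 151 for 2R6R-HNK, and 127 and 127 for 2S6S-HNK.
E2+ketamine stood above the other 14 libraries and E2+2S6S-HNK below them. MYC rose by 0.46 ± 0.03 on the log2 scale after E2+ketamine (adjusted p = 1.4e-19) and fell by 0.17 ± 0.03 after E2+2S6S-HNK (adjusted p = 4.6e-06). Both held with the GC correction, at 0.28 and -0.25, but with upper-quartile normalization the fall was -0.06 (adjusted p = 0.077).
The other changes were small. MYC was 0.14 ± 0.03 higher after E2, 0.17 ± 0.03 after 2R6R-HNK, 0.11 ± 0.03 after E2+2R6R-HNK and 0.08 ± 0.03 after ketamine (adjusted p = 0.015). The ketamine call was lost without ketamine replicate 1 (0.05) or vehicle replicate 2 (0.07), and the E2+2R6R-HNK call without E2+2R6R-HNK replicate 1 (0.08). Corrected for GC, the E2 and 2R6R-HNK values were 0.01 and 0.03, neither called, and the ketamine and E2+2R6R-HNK values turned to -0.06 and -0.10. After 2S6S-HNK MYC was 0.06 higher and not called (95% interval -0.00 to 0.12), but DESeq2 gave 0.09 (adjusted p = 0.0079) and upper-quartile normalization 0.13 (adjusted p = 0.00012), both called, as were 3 further settings at 0.07 to 0.09, while the GC correction turned it to -0.11, called lower (adjusted p = 0.00021).

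EGR2 and EGR3, zinc finger factors of the same family as EGR1, were close to the limit of detection. EGR2 had 0 to 24 counts per library, with a median of 5.5, and EGR3 had 7 to 49 with a median of 14, where 3 counts, the floor for a library, equal 0.0350 to 0.0547 CPM. EGR2 was at 0.0981 and 0.168 CPM in vehicle, at 0.311 and 0.0874 after 2R6R-HNK and at 0 and 0.0848 after 2S6S-HNK. EGR3 was at 0.196 and 0.235 CPM in vehicle, at 0.635 and 0.262 after 2R6R-HNK and at 0.0981 and 0.109 after E2+2S6S-HNK.
The 2 libraries of 2R6R-HNK stood apart from each other, with 24 and 5 EGR2 counts and 49 and 15 EGR3 counts. Neither gene was called against vehicle after any treatment, and the 95% intervals for EGR3 were wide, for example -1.17 to 1.14 on the log2 scale after ketamine. At an unadjusted p under 0.05, EGR3 after 2R6R-HNK was the only comparison (1.09 ± 0.54, adjusted p = 0.071).

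The 3 drugs were then compared with each other at the same 400 nM dose and the same 24 h, in 3 pairs without E2 and 3 pairs with it. Without E2, EGR1 was ordered ketamine, 2R6R-HNK, 2S6S-HNK, and all 3 steps were called. 2R6R-HNK was above ketamine in FOSL1, IER2, EGR1, JUN and MYC. The mirror-image isomers differed from each other in 9 of the 10 genes, beside 22.4% of all genes higher and 21% lower after 2S6S-HNK. Of these 9, FOSB, EGR2 and EGR3 were lost with single libraries left out.

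Between 2R6R-HNK and ketamine 5 members were higher and 0 lower, beside 22.6% and 22.8% of all genes. FOSL1 was 0.48 ± 0.03 higher on the log2 scale after 2R6R-HNK (adjusted p = 2.1e-18), IER2 0.36 ± 0.05, EGR1 0.28 ± 0.05, JUN 0.22 ± 0.03 and MYC 0.09 ± 0.03. The MYC call was lost without 2R6R-HNK replicate 2 (0.08) or ketamine replicate 2 (0.06). The other 4 were called in every left-out setting and after the GC correction, at 0.33, 0.20, 0.17 and 0.13. No difference was called for FOS (0.05, 95% interval -0.29 to 0.38), FOSB (-0.20, -0.57 to 0.16) or JUNB (0.17, 0.02 to 0.32, adjusted p = 0.056). JUNB was called with DESeq2 size factors (0.18), halved counts (0.17) or only the groups compared (0.18), and without 2R6R-HNK replicate 1 (0.25) or ketamine replicate 2 (0.24), and was at -0.02 when corrected.

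Between 2S6S-HNK and ketamine 3 members were higher and 1 lower, beside 24.2% and 22% of all genes. EGR1 was 0.67 ± 0.05 higher on the log2 scale after 2S6S-HNK (adjusted p = 7.6e-17) and JUNB 0.38 ± 0.08 lower, from -0.38 to -0.52 with the GC correction. FOSL1 was 0.11 ± 0.03 higher, a call lost without 2S6S-HNK replicate 2 (0.08) or ketamine replicate 1 (0.09), and its corrected value was -0.0023. FOS was 0.40 ± 0.16 higher (adjusted p = 0.045), and that call was lost without 2S6S-HNK replicate 2 (0.28) or ketamine replicate 1 (0.21), in DESeq2 (adjusted p = 0.12) and with the correction (0.33, adjusted p = 0.095), though without ketamine replicate 2 it was 0.60. With either of those 2 libraries left out, 2 members were called in this pair and not 4. FOSB (0.39, 95% interval 0.04 to 0.75), JUN (0.00089, -0.07 to 0.07), IER2 (-0.07, -0.18 to 0.05) and MYC (-0.02, -0.08 to 0.04) were not called. With the GC correction IER2 (-0.21, adjusted p = 0.00068) and JUN (-0.09, adjusted p = 0.0072) were called lower, so that 1 member was higher and 3 were lower, beside 23.8% and 17.6% of all genes in the corrected fit.

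Between the isomers without E2, 2S6S-HNK against 2R6R-HNK, 2 members were higher and 7 lower, beside 22.4% and 21% of all genes. EGR1 was 0.40 ± 0.05 higher on the log2 scale after 2S6S-HNK and FOSB 0.60 ± 0.18 higher (adjusted p = 0.0065). JUNB was 0.55 ± 0.08 lower, IER2 0.43 ± 0.06, FOSL1 0.38 ± 0.03, JUN 0.22 ± 0.03 and MYC 0.11 ± 0.03. These values moved little with the GC correction, to 0.41 for EGR1, 0.57 for FOSB, -0.49 for JUNB, -0.41 for IER2, -0.33 for FOSL1, -0.22 for JUN and -0.14 for MYC.
FOSB was lost without 2R6R-HNK replicate 1 (0.44) or 2S6S-HNK replicate 1 (0.53). FOS was not called (0.35, 95% interval 0.01 to 0.69, adjusted p = 0.089). EGR2 (-2.21, adjusted p = 0.043) and EGR3 (-1.45, adjusted p = 0.034) were called on few counts. EGR2 was lost in DESeq2 (adjusted p = 0.10), with no low-count filter (adjusted p = 0.093) and without replicate 1 of either group (-0.97 without 2R6R-HNK replicate 1, -1.28 without 2S6S-HNK replicate 1). The 2S6S-HNK libraries held 0 and 5 EGR2 counts. EGR3 was lost in DESeq2 (adjusted p = 0.074) and without 2R6R-HNK replicate 1 (-0.65), 2S6S-HNK replicate 1 (-1.58) or 2S6S-HNK replicate 2 (-1.33).

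**Figure D3:**
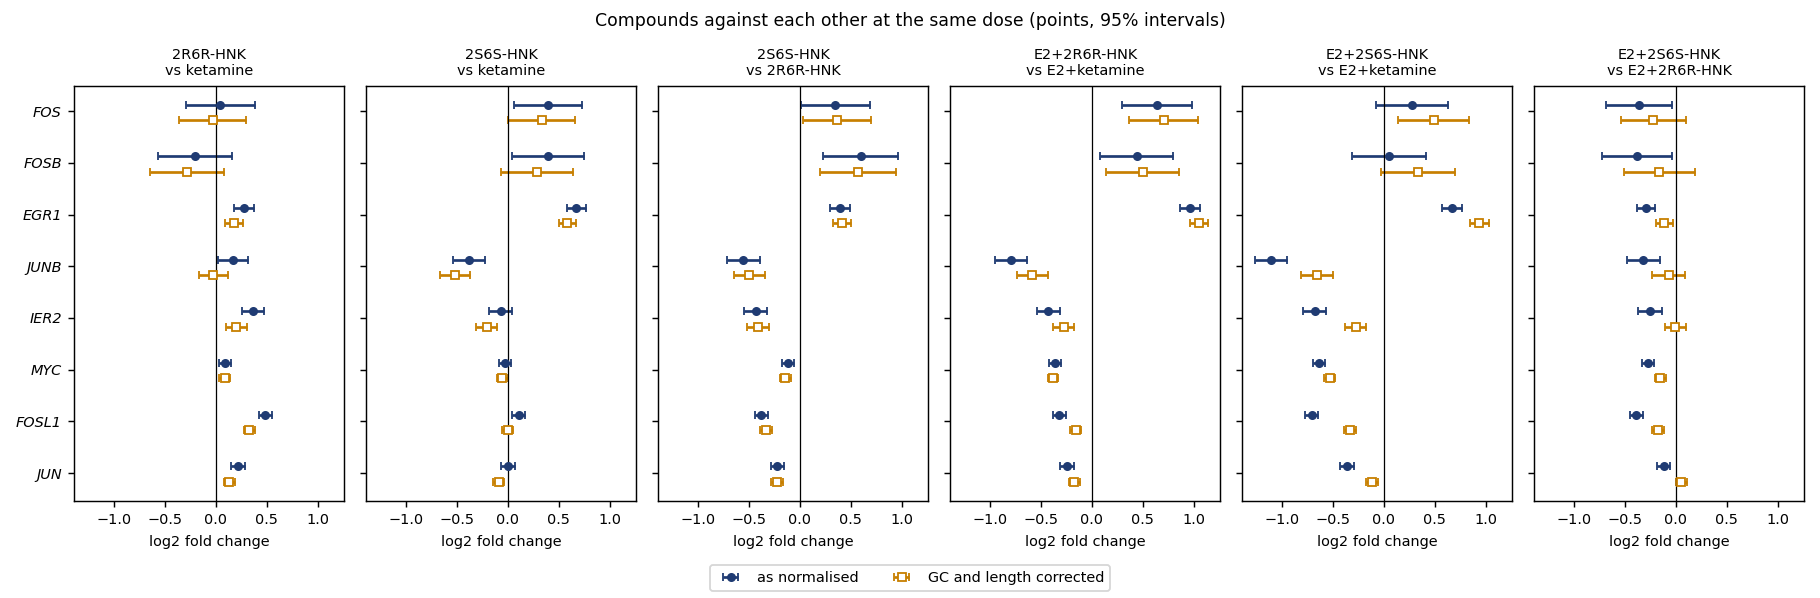
Log2 difference between drugs at 400 nM (horizontal axis, 95% intervals, 2 libraries per condition), with 3 pairs without E2 on the left and 3 pairs with E2 on the right, filled as normalised and open after the GC and length correction. EGR1 lies to the right of 0 in the first 5 panels and to the left in the last, and JUNB lies furthest to the left in E2+2S6S-HNK against E2+ketamine, at -1.11.

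With E2 present, E2+2R6R-HNK against E2+ketamine had 3 members higher and 5 lower, beside 26.7% and 25.3% of all genes. EGR1 was 0.96 ± 0.05 higher on the log2 scale (adjusted p = 1.5e-22), FOS 0.64 ± 0.17 higher (adjusted p = 0.0013) and FOSB 0.44 ± 0.18 higher (adjusted p = 0.032). JUNB was 0.79 ± 0.08 lower, IER2 0.42 ± 0.06, MYC 0.36 ± 0.03, FOSL1 0.32 ± 0.03 and JUN 0.24 ± 0.03. With the GC correction these 8 kept their direction and their calls, with the fall of FOSL1 at -0.16, of IER2 at -0.27, of JUN at -0.17 and of JUNB at -0.58. FOSB was lost in DESeq2 (adjusted p = 0.11) and without E2+ketamine replicate 1 (0.25) or either E2+2R6R-HNK library (0.45 and 0.43), and was at 0.66 without E2+ketamine replicate 2.

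Against E2+ketamine, E2+2S6S-HNK had 1 member higher and 6 lower, beside 35% and 31.7% of all genes. EGR1 was 0.67 ± 0.05 higher on the log2 scale, JUNB 1.11 ± 0.08 lower (adjusted p = 1.4e-17), FOSL1 0.70 ± 0.03, IER2 0.67 ± 0.06, MYC 0.63 ± 0.03 and JUN 0.36 ± 0.03 lower. Corrected for GC, the same genes were at 0.94, -0.65, -0.33, -0.28, -0.53 and -0.11, all called. FOS (0.28, 95% interval -0.07 to 0.63) and FOSB (0.06, -0.31 to 0.42) were not called, though FOS was with the correction (0.49, adjusted p = 0.012). EGR3 was 1.59 ± 0.62 lower (adjusted p = 0.022), a call lost with the correction (-1.38, adjusted p = 0.055) and without any 1 of the 4 libraries (-1.51 to -1.66).

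Between the isomers with E2, E2+2S6S-HNK against E2+2R6R-HNK, 0 members were higher and 6 lower, beside 25% and 29.1% of all genes. FOSL1 was 0.39 ± 0.03 lower on the log2 scale, JUNB 0.32 ± 0.08, EGR1 0.29 ± 0.05, MYC 0.27 ± 0.03, IER2 0.25 ± 0.06 and JUN 0.12 ± 0.03. Of these, FOSL1, MYC and EGR1 held with the GC correction, at -0.17, -0.15 and -0.11, while JUNB and IER2 were at -0.07 and -0.0039 and JUN at 0.06, none called. In the corrected fit 0 members were thus higher and 3 lower, beside 12.5% and 17.7% of all genes. The JUN call was lost without E2+2S6S-HNK replicate 2 (-0.08) and the IER2 call without E2+2R6R-HNK replicate 1 (-0.16). FOS (-0.36, 95% interval -0.69 to -0.03, adjusted p = 0.057) and FOSB (-0.38, -0.73 to -0.04, adjusted p = 0.054) were just above the threshold. FOS passed it with no low-count filter (adjusted p = 0.040), halved counts (0.041) and only the groups compared (0.045), and FOSB with halved counts (0.036) and DESeq2 size factors (0.047).
EGR1 was thus higher with 2S6S-HNK than with 2R6R-HNK when E2 was absent and lower when it was present, and JUNB, FOSL1, JUN, IER2 and MYC were lower with 2S6S-HNK in both settings as normalised.

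The study also asked how E2 bears on the drugs, and the contrast for this is the drug effect with E2 minus the drug effect without it. For ketamine 3 members were called higher and 4 lower in this contrast, where 37.5% of all genes were called in either direction. For 2R6R-HNK 1 was higher and 6 lower, beside 56.6% of all genes, and for 2S6S-HNK 0 were higher and 8 lower, beside 65.1%. Corrected for GC, 3 were higher and 4 lower for ketamine, beside 36.8% of all genes in the corrected fit, and 1 was higher and 4 were lower for each isomer, beside 43.8% for 2R6R-HNK and 40.9% for 2S6S-HNK.
FOS and FOSB each rose after E2 alone and after each drug alone, and for ketamine and 2S6S-HNK the log2 change of the combination was smaller than the sum of the separate changes. For ketamine the contrast was -1.18 ± 0.27 for FOS (adjusted p = 0.00034) and -1.13 ± 0.28 for FOSB (adjusted p = 0.0011), and for 2S6S-HNK it was -1.29 ± 0.26 and -1.47 ± 0.28. For 2R6R-HNK neither was called, at -0.58 ± 0.26 (adjusted p = 0.054) and -0.49 ± 0.28 (adjusted p = 0.14). The FOS value passed with a replicate block (-0.60, adjusted p = 0.048), with upper-quartile normalization (-0.64, adjusted p = 0.032), with DESeq2 size factors (-0.62, adjusted p = 0.040), with no low-count filter (adjusted p = 0.039), and without 2R6R-HNK replicate 2 (-0.72), E2 replicate 1 (-0.68), E2+2R6R-HNK replicate 2 (-0.67) or vehicle replicate 2 (-0.98). With the GC correction FOS was at -0.40 (adjusted p = 0.22) and FOSB at -0.24 (adjusted p = 0.53).

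JUNB had negative contrasts with all 3 drugs, at -1.41 ± 0.11 for 2R6R-HNK (adjusted p = 1.2e-15), -1.18 ± 0.12 for 2S6S-HNK and -0.46 ± 0.11 for ketamine. All 3 held with the GC correction, at -0.95, -0.53 and -0.39. E2 alone and 2R6R-HNK alone gave 16.1 to 18.0 CPM, and together they gave 11.3 and 10.7 CPM.
For EGR1 the sign of the contrast differed by drug, at -0.40 ± 0.07 for ketamine, 0.28 ± 0.07 for 2R6R-HNK and -0.41 ± 0.07 for 2S6S-HNK, the last at -0.01 when corrected. MYC was positive for ketamine (0.24 ± 0.04) and negative for 2R6R-HNK (-0.20 ± 0.04) and 2S6S-HNK (-0.36 ± 0.04), and FOSL1 had the same signs, its 2S6S-HNK value being 0.009 when corrected. IER2 was not called for ketamine (0.03, 95% interval -0.13 to 0.18).

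**Figure D4:**
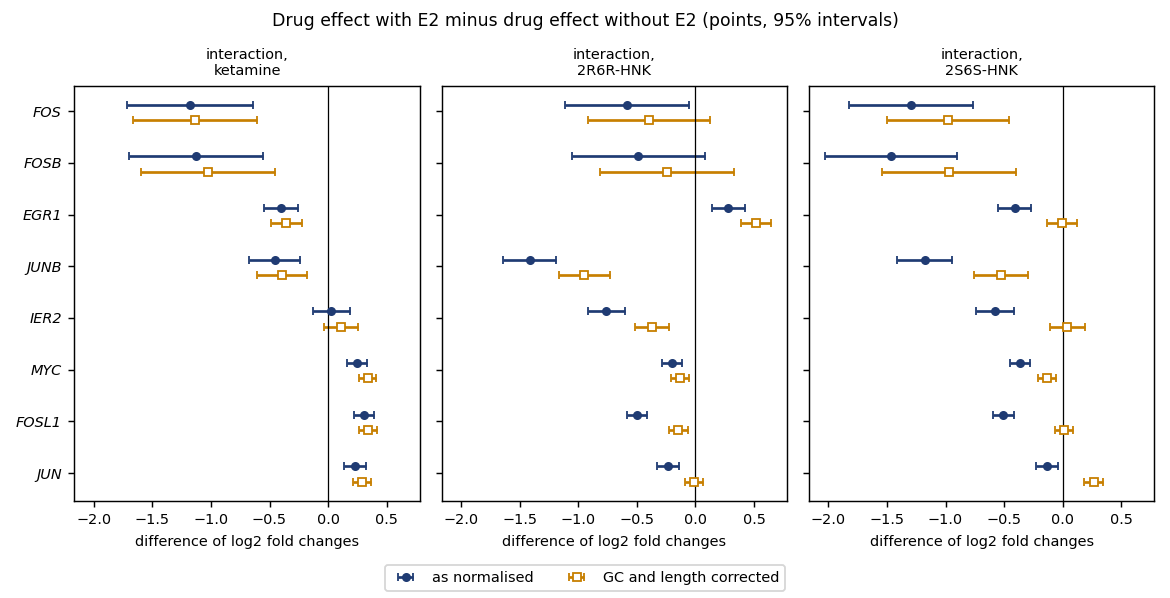
Drug effect with E2 minus drug effect without E2 (horizontal axis, difference of log2 fold changes, 95% intervals, 8 libraries per contrast), filled as normalised and open after the GC and length correction. FOS, FOSB and JUNB lie to the left of 0 in all 3 panels, and for 2S6S-HNK the open squares of EGR1 (-0.01), IER2 (0.04) and FOSL1 (0.009) lie next to 0.

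Set against E2 alone and given as values with no test, adding ketamine to E2 gave log2 differences of 0.33 for MYC, 0.19 for JUNB, -0.09 for FOSL1 and 0.09 for FOS (95% interval -0.28 to 0.46). Corrected for GC, MYC was at 0.27 while JUNB turned to -0.12 (95% interval -0.27 to 0.03) and FOS to -0.04, and FOSL1 was at -0.34. EGR1, IER2 and JUN went from -0.10, 0.0062 and -0.03 to -0.27, -0.26 and -0.19. Adding 2R6R-HNK to E2 gave 0.86 for EGR1, 0.73 for FOS and 0.68 for FOSB, with -0.59 for JUNB, -0.42 for IER2, -0.41 for FOSL1 and -0.27 for JUN. Adding 2S6S-HNK to E2 gave 0.57 for EGR1 and 0.37 for FOS, with -0.91 for JUNB, -0.79 for FOSL1, -0.67 for IER2, -0.39 for JUN and -0.30 for MYC. These values for both isomers kept their sign with the correction.

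The other genes of the pathway were taken from lists by role, and their counts stand beside the 24% to 34.3% of all tested genes called higher and the 32.5% to 37.4% called lower over the 7 treatments. Among 13 tested AP-1 and related proteins outside the 10, 5 (E2+2S6S-HNK) to 9 (2R6R-HNK and E2+ketamine) were called higher against vehicle and 1 or 2 lower. Corrected for GC, the number called in either direction fell from 9 to 3 after E2 and from 11 to 6 after 2R6R-HNK, where the corrected fit called 15.7% and 20.6% of all genes higher and 22.4% and 25.1% lower. Unless said to be corrected, counts and values of list genes here and below are as normalised. Corrected values of single list genes are not given here. JUND, the constitutive JUN relative, rose after all 7 treatments as normalised, by 0.61 ± 0.05 (E2+2S6S-HNK) to 1.06 ± 0.05 (E2+ketamine) on the log2 scale. MAFF, a small MAF protein, rose by 0.19 to 0.92 on the log2 scale, lowest and highest in the same conditions. The list's median log2 fold change was 0.19 to 0.70, beside medians of all genes from -0.06 to -0.0027.

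Among 18 other early response genes, 12 were higher and 2 lower after E2 as normalised. After E2+2S6S-HNK 5 were higher and 7 lower, near the shares of all genes (24% and 35.7%). Corrected counts by direction are not given here for this list. NR4A1, an orphan nuclear receptor induced with EGR1, rose after all 7 treatments, by 0.50 ± 0.08 (2R6R-HNK) to 1.11 ± 0.08 (E2+2R6R-HNK, adjusted p = 5.1e-18) on the log2 scale. KLF2, a zinc finger factor that restrains inflammation in endothelial and myeloid cells, went the other way with the metabolites. It fell by 0.99 after 2R6R-HNK, 0.62 after 2S6S-HNK, 1.59 ± 0.11 after E2+2R6R-HNK and 0.91 after E2+2S6S-HNK on the log2 scale, and rose by 0.45 after E2.

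Counts and values in this paragraph are as normalised. Upstream, the 14 activators that act on these promoters had 2 to 6 members higher and 7 to 9 lower. The 15 kinases of the ERK pathway and its relatives had 4 or 5 higher and 9 or 10 lower. With the GC correction, fewer activators were called after E2, ketamine, 2R6R-HNK and E2+2R6R-HNK. Fewer kinases were called after E2, ketamine and E2+2S6S-HNK. The account of the processing choices gives these totals, and corrected counts by direction are not given here for either list. CREB1, which binds the CRE, fell after all 7 treatments, by 0.23 (E2+2S6S-HNK) to 0.96 (E2+ketamine) on the log2 scale, and so did RPS6KA3, a kinase that phosphorylates it, by 0.44 to 0.99. MAP2K4, a kinase upstream of JUN, fell after all 7 as well, by 0.53 to 1.004 on the log2 scale. Of the 14 feedback inhibitors 5 to 9 were higher and 2 to 7 lower, and with 5 higher and 4 lower 2R6R-HNK was near all genes (31.7% and 34.9%). NAB2, a corepressor that EGR1 induces and that binds EGR proteins, rose after all 7 treatments, by 0.43 to 0.97 on the log2 scale. DUSP2, a phosphatase of ERK, rose after 6, by 0.42 to 1.104, and was at 0.10 after ketamine (adjusted p = 0.55).

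Of 12 tested members of the MYC network, 7 or 8 were higher and 2 to 4 lower as normalised. With the GC correction, called genes of this network fell by more than 1.5 times after E2, 2R6R-HNK and E2+ketamine. MXD3, which competes with MYC for MAX, rose after all 7 treatments, by 0.46 to 1.12 on the log2 scale, and MGA, a large MAX partner, fell by 0.55 to 1.13. Of 12 MYC target genes 0 (E2+2S6S-HNK) to 5 (E2+ketamine) were higher and 7 or 8 lower. NPM1 and NCL, abundant nucleolar proteins, fell after all 7, by 0.52 to 1.25 and 0.69 to 1.17 on the log2 scale, also after E2+ketamine where MYC was highest.
Of 6 tested AP-1 target genes all 6 were lower after 2S6S-HNK, E2+2R6R-HNK and E2+2S6S-HNK, 4 were lower and 1 higher after ketamine, 3 lower and 0 higher after 2R6R-HNK, and 1 lower and 1 higher after E2. After E2+ketamine 3 were higher and 2 lower, with a median of 0.04. CD44, a hyaluronan receptor, fell after all 7, by 0.30 to 0.59 on the log2 scale. With the GC correction the counts of several lists fell by more than 1.5 times, as the account of the processing choices gives.

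**Figure D5:**
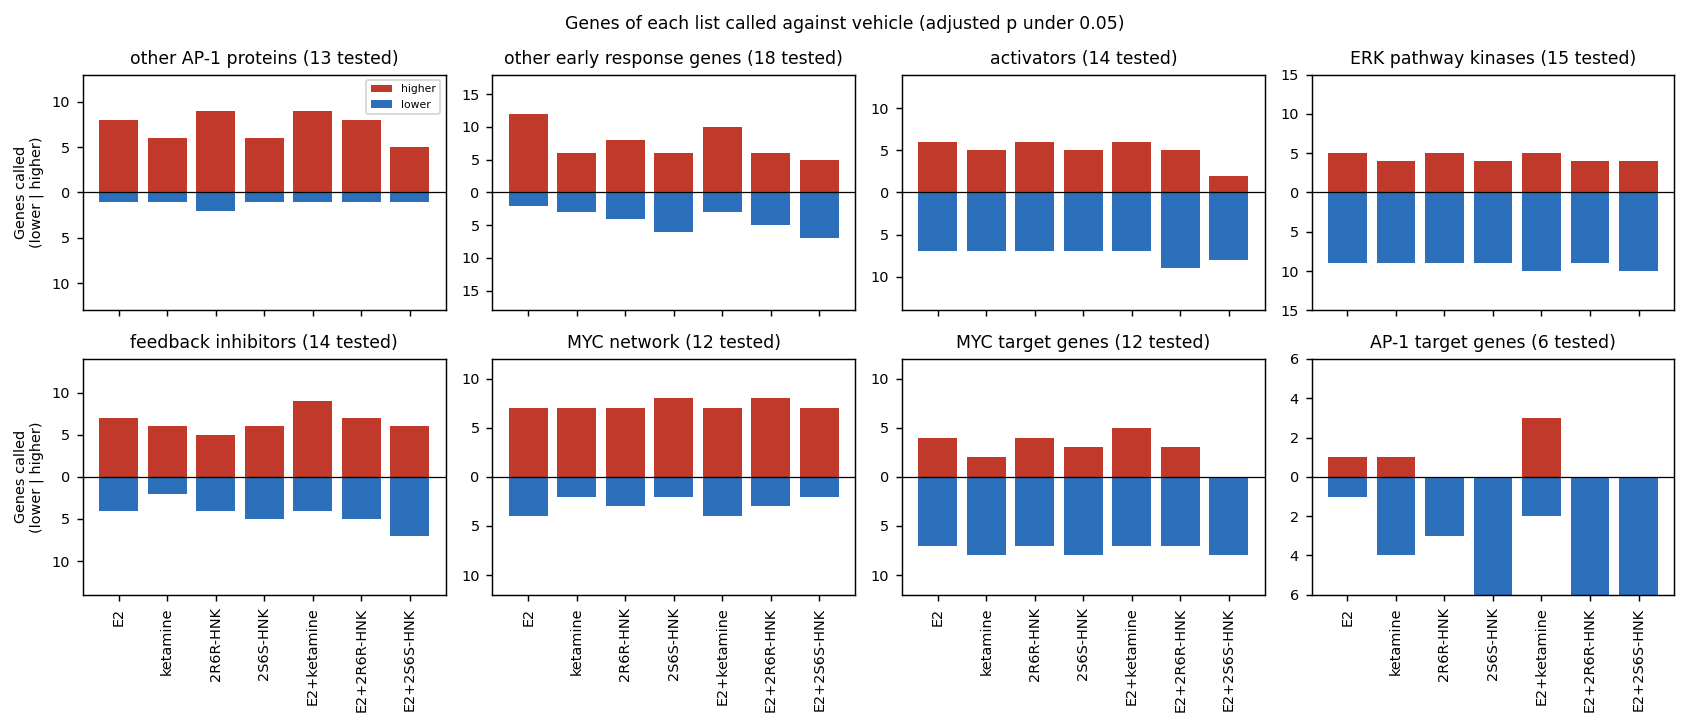
Number of genes called higher (red, upward) and lower (blue, downward) against vehicle in each of 8 gene lists, with 1 bar pair per treatment, as normalised, and axes that reach the number tested. The AP-1 target genes are all lower in 3 of the 7 treatments, while 5 to 9 of the 13 other AP-1 proteins are higher and 1 or 2 lower in each treatment.

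Among 10374 genes at a mean of at least 5 CPM, those whose pattern over the 8 condition means was most like FOSB were SRRM3 (r of 0.992), ITGB4 (0.990) and CUL9 (0.989). For EGR3 they were LINC00094 (0.983), INTS3 (0.980) and DNAJC30 (0.978), and for EGR2 FLVCR1-AS1 (0.976), COQ5 (0.878) and IPP (0.853). These 3 members were taken because their condition means ranged furthest, by 1.85, 1.73 and 1.77 log2 CPM, and for EGR2 and EGR3 that range rests on few counts. The values are a description over 8 points picked from many genes.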

How the data were processed

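Total RNA from HMC3 cells was amplified with an NuGEN Ovation kit and sequenced as read pairs. Per the labels the authors aligned the reads to hg19 with TopHat and Bowtie (the processing notes list TopHat2 2.0.14, Bowtie2 2.2.6 and featureCounts 1.4.6) and counted uniquely mapped pairs per gene. The deposited values are raw counts per gene for 16 libraries in 8 conditions, grouped by their labels. Strandedness is not given in the sources used here. Of counts from 1 to 9, 65.8% were even, against 49.9% of counts of 500 or more, and halved counts were tried as an alternative.

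The counts were normalised by TMM and fitted in edgeR 4.0.16 (R 4.3.3) with 1 mean per condition over all 16 libraries (8 residual degrees of freedom, quasi-likelihood F tests, filterByExpr), and p-values were adjusted by the Benjamini-Hochberg method over the 16004 of 25370 genes that passed. In all 16 contrasts were tested: 7 treatments against vehicle, 6 drug pairs and 3 drug by E2 interactions. With 2 libraries against 2 an exact permutation test cannot go below p = 0.33. CPM are TMM-scaled with no prior count, and log2 CPM for levels over conditions used a prior count of 2. The common coefficient of variation was 2.81%. Intervals cover the spread between libraries as fitted.

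The members and gene lists were chosen with earlier results of these data known. The lists were other AP-1 proteins, other early response genes, activators, ERK pathway kinases, feedback inhibitors, the MYC network, MYC target genes and AP-1 target genes, with markers of microglia, mesenchymal cells, neurons and astrocytes. All members are named, and from each list the 2 genes of largest absolute change against vehicle among those called, at a mean of at least 5 CPM and with both libraries on the same side of both vehicle libraries. In some lists a gene named by this rule is not reported here. Likeness of pattern was Pearson's r over the 8 condition means for the 3 members whose means ranged furthest. Alternatives were DESeq2 1.42.0, upper-quartile and DESeq2 size factors, other filters, only the groups compared, a replicate block, a loess correction for exon GC and length (span 0.5), halved counts, a stricter adjusted p of 0.01 and each library left out. Positions are GENCODE's on GRCh37. Of the table's symbols 21539 were matched to it directly and 1455 by an older symbol. Scripts were tested on simulated data.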

Additional observations from a re-analysis of the deposited data

Results flagged for a closer look

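The drug effect with E2 differed from that without E2 in 22 of the 30 contrasts of the 10 members, by the interaction test itself (edgeR, adjusted over all genes), where 37.5%, 56.6% and 65.1% of all genes were called for ketamine, 2R6R-HNK and 2S6S-HNK. Values are the log2 effect with E2 minus that without, and all 3 contrasts share the E2 and vehicle libraries.

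For ketamine the difference was -1.18 for FOS, -1.13 for FOSB, -0.46 for JUNB and -0.40 for EGR1, and 0.31 for FOSL1, 0.24 for MYC and 0.23 for JUN. With the GC and length correction the same 7 were at -1.14, -1.02, -0.39, -0.36, 0.34, 0.34 and 0.29, all called.

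For 2R6R-HNK it was -1.41 for JUNB, -0.76 for IER2, -0.50 for FOSL1, -0.23 for JUN and -0.20 for MYC, and 0.28 for EGR1. Corrected, these were -0.95, -0.37, -0.15, -0.01, -0.13 and 0.52, and JUN was not called. EGR3 was at -1.75 (adjusted p = 0.047) from 12 to 49 counts per library. That call was lost in DESeq2 (adjusted p = 0.090), with no low-count filter (adjusted p = 0.055), with the correction (-1.57, adjusted p = 0.092) and without any of 5 of the 8 libraries, namely 2R6R-HNK replicate 1 (-0.95), E2 replicate 2 (-1.12), E2+2R6R-HNK replicate 2 (-1.46), vehicle replicate 1 (-1.63) and vehicle replicate 2 (-1.89).

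For 2S6S-HNK all 8 called differences were negative, at -1.47 for FOSB, -1.29 for FOS, -1.18 for JUNB, -0.58 for IER2, -0.51 for FOSL1, -0.41 for EGR1, -0.36 for MYC and -0.13 for JUN. Corrected, FOSB, FOS, JUNB and MYC stayed called at -0.97, -0.98, -0.53 and -0.14. IER2, FOSL1 and EGR1 were at 0.04, 0.009 and -0.01 and not called, and JUN was called at 0.26, the other direction. The JUN call was also lost without 2S6S-HNK replicate 1 (-0.11), E2+2S6S-HNK replicate 2 (-0.09) or vehicle replicate 2 (-0.08).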

How the results depend on the processing

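Over 132 single-gene results, alternatives on all libraries without the GC correction gave 1050 values, of which 1009 kept direction and side of the threshold, 9 lost a call, 20 gained one and 12 changed sign. With the GC and length correction 92 of 132 kept both, 10 lost a call, 7 gained one and 23 changed sign. With 1 library left out 561 of 628 kept both, 42 lost a call, 10 gained one and 15 changed sign. The cause of these changes was not tested.

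With the GC correction, alone or with the replicate block, members called fell from 8 to 5 in E2 against vehicle. They fell from 6 to 3 in E2+2S6S-HNK against E2+2R6R-HNK and from 8 to 5 in the interaction of 2S6S-HNK. The share of all genes called fell as well, after E2 from 29.9% to 15.7% higher and from 32.7% to 22.4% lower. For E2+2S6S-HNK against E2+2R6R-HNK it fell from 25% to 12.5% higher and from 29.1% to 17.7% lower. For the interaction of 2S6S-HNK it fell from 65.1% to 40.9% in either direction. In the lists, called genes fell from 9 to 3 and 11 to 6 (other AP-1 proteins, E2 and 2R6R-HNK). Called activators fell from 13 to 7, 12 to 7, 13 to 6 and 14 to 9 (E2, ketamine, 2R6R-HNK, E2+2R6R-HNK). Called ERK pathway kinases fell from 14 to 7, 13 to 7 (6 with the block) and 14 to 7 (E2, ketamine, E2+2S6S-HNK). The MYC network fell from 11 to 4, 10 to 5 and 11 to 7 (E2, 2R6R-HNK, E2+ketamine), and AP-1 target genes from 5 to 3 (E2+ketamine). Over all genes, the shares called higher and lower went from 26.8% and 32.5% to 17.7% and 30.8% after ketamine. They went from 31.7% and 34.9% to 20.6% and 25.1% after 2R6R-HNK, and from 34.3% and 37.4% to 24.3% and 28.2% after E2+ketamine. After E2+2R6R-HNK they went from 33.4% and 36.3% to 25.9% and 33.6%. The shares changed little after E2+2S6S-HNK, from 24% and 35.7% to 22.4% and 34%. Whether a list fell further than all genes was not tested.

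Signs changed with the correction, with or without the block, against vehicle after E2 for FOSL1 (-0.14), JUN (-0.17), EGR1 (-0.022) and IER2 (-0.11), after ketamine for MYC (-0.062), after 2R6R-HNK for FOSL1 (-0.35) and IER2 (-0.17), after 2S6S-HNK for JUNB (-0.25) and MYC (-0.11), after E2+ketamine for FOSL1 (-0.48), JUN (-0.36), EGR1 (-0.29) and IER2 (-0.37), and after E2+2R6R-HNK for JUNB (-0.37) and MYC (-0.10). They changed for FOS (-0.031, with the block -0.019) and JUNB (-0.023) in 2R6R-HNK against ketamine, FOSL1 (-0.0023, with the block -0.0024) and JUN (-0.0896, with the block -0.0893) in 2S6S-HNK against ketamine, JUN in E2+2S6S-HNK against E2+2R6R-HNK (0.056, with the block 0.055), and in the 2S6S-HNK interaction for FOSL1 (0.0090, with the block 0.0094), JUN (0.26) and IER2 (0.038, with the block 0.036).

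Other sign changes were of values near 0. IER2 after ketamine was at 0.00897 in DESeq2, 0.0633 with upper-quartile normalization, 0.00814 with DESeq2 size factors and 0.00661 with only the groups compared. JUN after 2R6R-HNK was at 0.00427, 0.0431 and 0.00371 in the first 3 of these. JUN in 2S6S-HNK against ketamine was at -0.00778 (upper-quartile), -0.00737 (no filter), -0.00132 (halved counts) and -0.0123 (groups compared only). The IER2 interaction of ketamine was at -0.059 (upper-quartile). With 1 library left out the ranges were -0.061 to 0.021 (IER2, ketamine), -0.085 to 0.016 (JUN, 2R6R-HNK), -0.0055 to 0.10 (JUN, E2+ketamine), -0.14 to 0.25 (FOS, 2R6R-HNK against ketamine), -0.037 to 0.036 and -0.053 to 0.00086 (JUN and MYC, 2S6S-HNK against ketamine), -0.14 to 0.28 (FOSB, E2+2S6S-HNK against E2+ketamine) and -0.023 to 0.074 (IER2 interaction, ketamine), and members called in 2S6S-HNK against ketamine numbered 2 to 4, with 2 of them without 2S6S-HNK replicate 2 or ketamine replicate 1.

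Upper-quartile normalization moved small called values by over 1.5 times, to 0.14 for JUN after E2, 0.17 for MYC after ketamine, 0.17 and 0.18 for FOSL1 after 2R6R-HNK and E2+ketamine, and 0.19 for MYC after E2+2R6R-HNK. JUN after E2+ketamine passed with it (0.11), in DESeq2 (0.10) and with DESeq2 size factors (0.10). Libraries of the same replicate number showed no shared shift, with correlations of the replicate differences over all tested genes from -0.0258 to 0.0451 over 28 pairs of conditions. Such values cannot tell whether libraries were prepared as pairs. A replicate block changed 2 calls, the 2R6R-HNK interactions of FOS (-0.60, adjusted p = 0.048, gained) and EGR3 (-1.75, adjusted p = 0.051, lost), and no count of members called. With 2 libraries per condition a lone library left is assumed to vary like the others. EGR2 and EGR3 had medians of 5.5 and 14 counts, and their intervals were wide.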
